A study of Mus musculus with 8 samples.

Results

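Expression of the MHC class I antigen processing machinery was described in donor T cells recovered from the spleen on day 6 after allogeneic hematopoietic cell transplantation (HCT). The machinery is represented by 10 genes of the 25078 in the deposited tables, chosen by name: the class I heavy chains H2-K1 and H2-D1, their light chain B2m, the peptide transporter Tap1 and Tap2, the loading factor Tapbp, the immunoproteasome subunits Psmb8, Psmb9 and Psmb10, and the transactivator Nlrc5. The 10 genes were all listed and all passed the filter on low counts, as did 12428 genes in all. These 10 genes were chosen with earlier results of these data known.

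Lethally irradiated WT BALB/c mice (haplotype H-2d) received T cell-depleted bone marrow from WT C57BL/6 mice (H-2b) together with C57BL/6 T cells that were either wild type (WT) or from Stat3 fl/fl CD4-Cre mice (STAT3KO). This Cre is driven by Cd4 regulatory sequences and acts in the precursors of both CD4+ and CD8+ T cells. Splenocytes were sorted as H-2Kb+ TCRβ+ CD4+ or CD8+ donor T cells, giving, for WT and STAT3KO donors, a CD4 group and a CD8 group, which makes 4 groups of 2 libraries each, and the age of the mice is not in the labels. Each library pooled cells of several recipients, per the methods of the study, so the spread is between pools. H-2Kb, the protein of H2-K1, was part of the gate in every group, so cells low in this protein could not enter any library.

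Nucleated cells display peptides on MHC class I molecules so that CD8+ T cells can survey their proteins. Peptides are cut by the proteasome, in which the inducible subunits LMP7 (Psmb8), LMP2 (Psmb9) and MECL-1 (Psmb10) can replace the constitutive β5, β1 and β2 subunits encoded by Psmb5, Psmb6 and Psmb7. TAP carries the peptides into the endoplasmic reticulum, tapasin (Tapbp) holds the empty class I molecule beside TAP, and β2-microglobulin completes the molecule. NLRC5 drives transcription of class I genes with the RFX, CREB/ATF and NF-Y factors that sit on the conserved SXY module of their promoters. Interferons, acting in part through IRF1, raise the whole pathway.

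Of the members, 7 lie on chromosome 17 (mm10, positions as deposited), where Psmb9 (chr17:34182099-34187330, minus strand), Tap1 (chr17:34187556-34197225), Psmb8 (chr17:34198195-34201454) and Tap2 (chr17:34204479-34216321, all plus strand) follow each other. Tapbp (chr17:33919478-33929290, plus strand), H2-K1 (chr17:33996012-34000347, minus strand) and H2-D1 (chr17:35263094-35267497, plus strand) flank them. B2m is on chromosome 2 (chr2:122147687-122153082, plus strand), and Nlrc5 (chr8:94472763-94527272, plus strand) and Psmb10 (chr8:105935728-105938392, minus strand) are on chromosome 8.

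The promoters of the members are shown because NLRC5 is known to act at class I promoters and interferon-activated factors at promoters of this pathway. RefSeq sequences (build GRCm38.p6) were at hand for 8 of the 10 members, without Nlrc5 and Tap2, and their starts equalled the deposited gene starts in 8 of 8. Psmb9 and Tap1 are transcribed away from each other from starts that lie 225 bases apart. The whole stretch between those starts (chr17:34187331-34187555, plus strand, which is the strand of Tap1) is printed below with the letters CCAAT and TGACG in capitals, on either strand. The 150 bases before the starts of B2m (chr2:122147537-122147686, plus strand), H2-K1 (chr17:34000348-34000497, minus strand) and H2-D1 (chr17:35262944-35263093, plus strand) follow on the strand of the gene, with the same letters and, in B2m, the letters GAAA followed after 2 bases by GAAA in capitals with those bases. The last is Psmb8 (chr17:34198045-34198194, plus strand), with the letters TTC followed after 3 bases by GAA in capitals with those bases.
Psmb9 to Tap1: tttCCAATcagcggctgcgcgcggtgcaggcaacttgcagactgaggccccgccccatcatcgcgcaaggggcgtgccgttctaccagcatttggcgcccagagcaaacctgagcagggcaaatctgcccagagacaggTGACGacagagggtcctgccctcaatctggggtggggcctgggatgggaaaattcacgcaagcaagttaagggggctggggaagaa
B2m: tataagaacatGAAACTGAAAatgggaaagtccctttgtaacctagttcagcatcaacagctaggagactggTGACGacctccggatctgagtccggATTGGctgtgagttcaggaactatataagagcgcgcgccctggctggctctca
H2-K1: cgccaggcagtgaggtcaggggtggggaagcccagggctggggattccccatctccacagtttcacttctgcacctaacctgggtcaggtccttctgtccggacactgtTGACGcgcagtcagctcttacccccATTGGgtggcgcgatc
H2-D1: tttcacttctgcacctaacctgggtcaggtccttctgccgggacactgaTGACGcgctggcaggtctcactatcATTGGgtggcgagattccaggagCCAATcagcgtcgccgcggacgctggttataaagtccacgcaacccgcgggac
Psmb8: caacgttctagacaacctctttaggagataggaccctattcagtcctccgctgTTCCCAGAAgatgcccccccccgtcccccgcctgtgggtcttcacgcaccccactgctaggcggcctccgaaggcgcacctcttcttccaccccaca

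Matches to 5 motifs were sought on both strands in the 250 bases before each start, and each count is set beside the share of all 32851 RefSeq mouse promoters of that length that hold the letters. TGACG, the core of the site bound by CREB/ATF factors, was in 5 of 8 members and in 17.8% of all promoters. CCAAT, bound by NF-Y, was in 6 of 8 members and in 33.8% of all promoters. The TGACG and CCAAT of Psmb9 and of Tap1 are the same letters in the stretch these genes share. Counted once, they leave TGACG in 4 and CCAAT in 5 of 7 stretches. The printed stretches of H2-K1 and H2-D1 are also much alike around TGACG and ATTGG, and these were counted separately. In B2m, H2-K1 and H2-D1 the letters TGACG were followed 20 bases later by ATTGG, the reverse complement of CCAAT, at positions -78 and -53 in B2m, -41 and -16 in H2-K1, and -101 and -76 in H2-D1. This arrangement was chosen after the matches were seen, and it occurs in 30 of the 32851 promoters (0.0913%), among them that of the nonclassical class I gene H2-M3. The letters GAAA, 2 bases, GAAA are 1 form of the interferon-stimulated response element. They were in 1 of 8 members (B2m, positions -139 to -130) and in 2.98% of all promoters. Other forms of the element were not searched, so the count does not show that the other members lack it. The STAT-type letters (TTC, 3 bases, GAA) were in 1 of 8 members (Psmb8, positions -97 to -89) and in 7.02% of all promoters. The NF-κB-type letters (GGG, 5 bases, CC), whose matches partly overlap each other, were in 5 of 8 members and in 45.8% of all promoters. With the stretch shared by Psmb9 and Tap1 counted once, they were in 4 of 7 stretches. A match gives the letters in the window and nothing about binding.

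The libraries held between 20171396 and 23282757 counts, and the 10 members took between 0.612% and 0.974% of them. Values are given below as CPM, the count of a gene per 1000000 counts of its library after scaling by the TMM factors of edgeR, with replicate 1 before replicate 2. Stat3, the targeted gene, was at 436 and 428 CPM in the WT and 138 and 141 CPM in the STAT3KO libraries of CD4 T cells, and at 431 and 436 CPM (WT) and 120 and 143 CPM (STAT3KO) in those of CD8 T cells. Stat3 was lower in all 4 STAT3KO libraries than in any WT library, by counts over the whole gene, which include exons outside the floxed part. The 8 T cell markers summed to between 5008 and 5550 CPM, Cd4 lay between 1361 and 1602 CPM in CD4 libraries and between 1.04 and 8.16 CPM in CD8 libraries, and none of these markers was called different between STAT3KO and WT. The 7 B cell markers given here summed to between 103 and 124 CPM in WT CD4, 152 and 171 CPM in STAT3KO CD4 and 38.0 and 55.4 CPM in the CD8 libraries of both genotypes. Most of this was Cd22 (between 25.3 and 168 CPM over all libraries), and the defining markers Ms4a1 and Cd79a stayed under 1 CPM in every library. Of the 3 B cell markers that passed the filter, Cd79b was called higher and Pax5 lower in STAT3KO CD4 T cells (log2 1.10 and -5.19, edgeR adjusted p = 0.0229 and 0.000611), and neither was called in CD8 T cells. The 8 macrophage and monocyte markers summed to between 27.4 and 58.7 CPM in the replicate 1 libraries and between 83.5 and 151 CPM in the replicate 2 libraries.

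**Figure D1:**
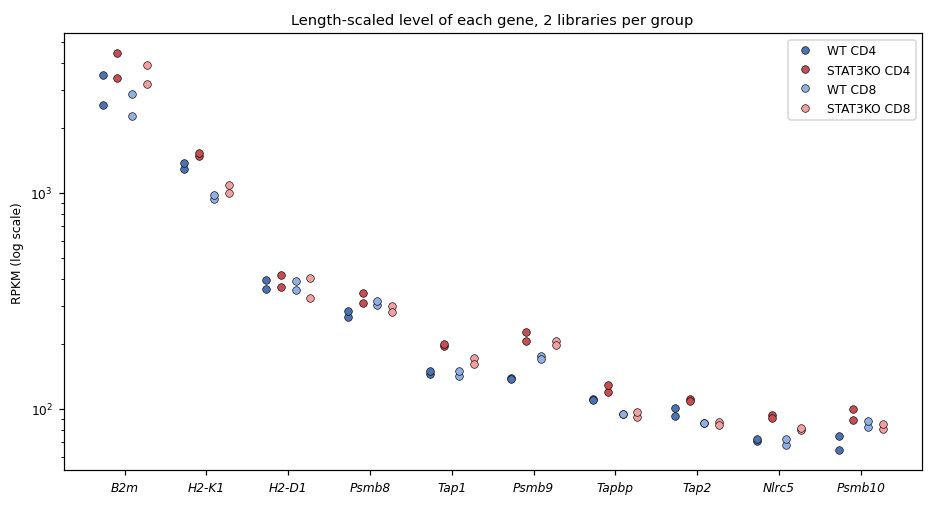
Deposited RPKM (log scale) of the 10 members, 1 point per library and 4 groups of 2 libraries, with genes ordered by their mean in WT CD4 T cells. B2m, H2-K1, H2-D1 and Psmb8 hold the top of the order in every group, and Nlrc5 and Psmb10 lie near 70 to 100 RPKM.

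Levels of different genes were compared in the deposited RPKM, which divides by exon length. B2m was the most abundant member, with a mean RPKM of 3020 ± 693 in the WT and 3894 ± 731 in the STAT3KO libraries of CD4 T cells, and 2557 ± 416 (WT) and 3531 ± 501 (STAT3KO) in those of CD8 T cells (SD, n = 2 each). H2-K1 came next, with a mean RPKM of 1333 ± 59.8, 1503 ± 33.7, 957 ± 32.4 and 1044 ± 65.7 in the same order of groups.

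H2-D1 ranked next and Psmb8 after it in all groups, without overlap between neighbours in this order. Psmb9 and Tap1 followed: Tap1 was ahead in WT CD4 (147 against 138 RPKM), and Psmb9 was ahead in STAT3KO CD4 (216 against 197), WT CD8 (173 against 146) and STAT3KO CD8 (202 against 166). Tapbp and then Tap2 came next in every group. Nlrc5 and Psmb10 held the last places, with means between 69.7 and 94.4 RPKM, and their libraries overlapped in WT CD4, STAT3KO CD4 and STAT3KO CD8. Tap2 and Psmb10 overlapped in both CD8 groups. Even the lowest of these means was above at least 91.7% of the tested genes.

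Loss of STAT3 in CD4 T cells was accompanied by higher transcript levels of the immunoproteasome subunits Psmb9 and Psmb10, of the transporter subunit Tap1 and of the transactivator Nlrc5. These 4 of the 10 members were called higher (edgeR quasi-likelihood test, Benjamini-Hochberg adjusted p under 0.05), against 6.73% of all tested genes called higher and 12.3% called in either direction, and no member was called lower. All 10 fitted differences were above 0, as were those of 6478 of the 12428 tested genes. The median log2 fold change of the members was 0.33, beside 0.02 over all tested genes. In 8 of the 10 both STAT3KO CD4 libraries lay above both WT CD4 libraries, which was so for 28.5% of all tested genes. The signs were positive for 10 of 10 members within replicate 1 and for 10 of 10 within replicate 2. The median over all tested genes was 0.004 and 0.03 (log2) there. These are the libraries of the fit itself, so the signs restate its result. The replicate 2 libraries held more macrophage transcripts. In a bulk library a larger share of cells with a transcript and more transcript per cell cannot be told apart. The WT and STAT3KO T cells also came from different recipients. In other experiments of the study, WT T cells caused severe acute graft-versus-host disease. STAT3-deficient T cells caused mild disease there, with lower serum interferon-γ. Donor genotype and the state of the recipient therefore cannot be told apart in these libraries.

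**Figure D2:**
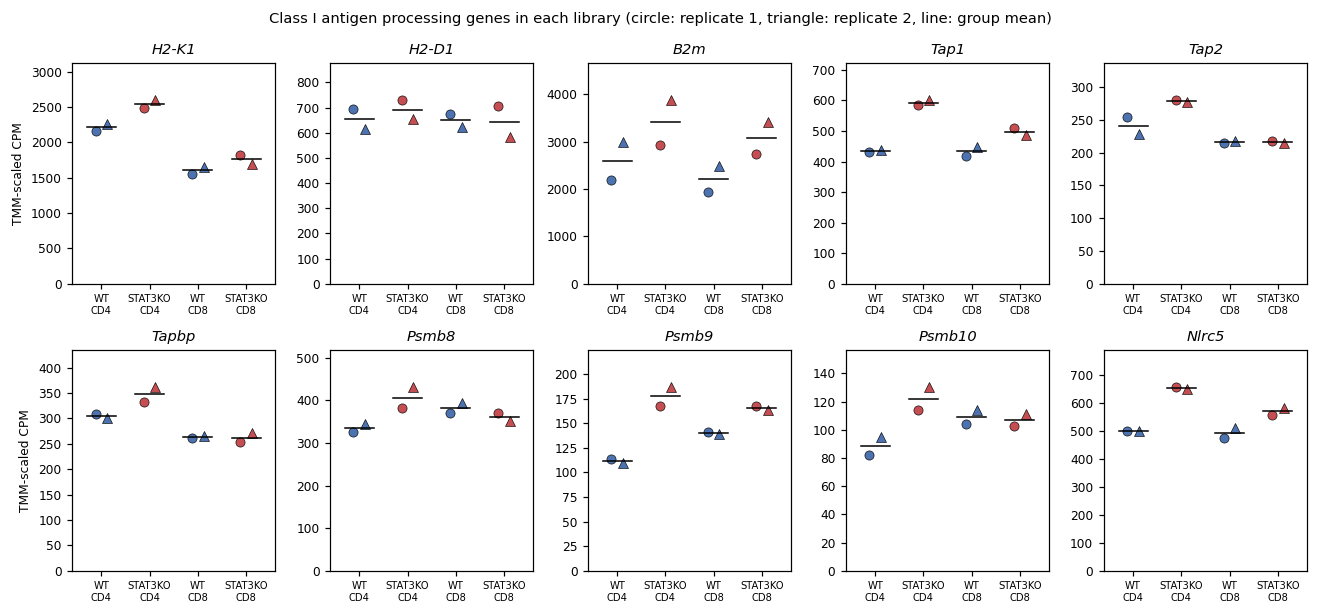
TMM-scaled CPM of each member in each of the 8 libraries, with circles for replicate 1, triangles for replicate 2 and lines for group means. Psmb9 stands at 110 to 113 CPM in the WT CD4 libraries and at 168 to 187 in STAT3KO CD4, Tap1 and Nlrc5 show the same separation, and B2m is higher in replicate 2 of every group.

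Psmb9, whose product is the inducible β1 subunit, was at 113 and 110 CPM in the WT and 168 and 187 CPM in the STAT3KO libraries of CD4 T cells, and at 142 and 139 CPM (WT) and 167 and 163 CPM (STAT3KO) in those of CD8 T cells. The 2 WT CD4 libraries were the lowest of all, and STAT3KO lay above WT without overlap in both lineages. The difference in CD4 T cells was 1.59-fold (log2 0.67, SE 0.093, adjusted p = 0.00464). Psmb9 was the member with the largest difference here, and the member whose call was kept whichever of the 8 libraries was left out (edgeR adjusted p between 0.00956 and 0.0483).

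Psmb10, the inducible β2 subunit, was at 82.3 and 94.7 CPM in the WT and 114 and 130 CPM in the STAT3KO libraries of CD4 T cells, and at 104 and 114 CPM (WT) and 103 and 111 CPM (STAT3KO) in those of CD8 T cells. WT CD4 stood below the other groups, and in CD8 T cells the genotypes overlapped. The CD4 difference was 1.38-fold (log2 0.47, SE 0.12, edgeR adjusted p = 0.0415). Psmb8, the inducible β5 subunit, was at 326 and 345 CPM in the WT and 381 and 431 CPM in the STAT3KO libraries of CD4 T cells, and at 369 and 394 CPM (WT) and 370 and 351 CPM (STAT3KO) in those of CD8 T cells. Its CD4 libraries did not overlap, but the difference of 1.21-fold (log2 0.28, SE 0.10) did not pass the test (edgeR adjusted p = 0.129). With the replicate number as a block it passed (edgeR adjusted p = 0.0275).

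Tap1, one of the subunits of the peptide transporter, was at 431 and 439 CPM in the WT and 584 and 602 CPM in the STAT3KO libraries of CD4 T cells, and at 419 and 449 CPM (WT) and 509 and 486 CPM (STAT3KO) in those of CD8 T cells. Both genotypes were separate in both lineages, and the STAT3KO CD4 libraries were the highest. The CD4 difference was 1.36-fold (log2 0.45, SE 0.093, edgeR adjusted p = 0.0207). Tap2, the partner subunit, was at 254 and 228 CPM in the WT and 281 and 277 CPM in the STAT3KO libraries of CD4 T cells, and at 215 and 218 CPM (WT) and 219 and 215 CPM (STAT3KO) in those of CD8 T cells. It was highest in STAT3KO CD4, and its CD4 difference of 1.15-fold (log2 0.21, SE 0.092) did not pass the test (edgeR adjusted p = 0.192). The ratio of Tap1 to Tap2 in RPKM was 1.53 ± 0.136 in the WT and 1.80 ± 0.0563 in the STAT3KO libraries of CD4 T cells, and 1.69 ± 0.0690 (WT) and 1.94 ± 0.0403 (STAT3KO) in those of CD8 T cells (SD, n = 2 each).

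Nlrc5, the transactivator, was at 498 and 499 CPM in the WT and 656 and 649 CPM in the STAT3KO libraries of CD4 T cells, and at 475 and 511 CPM (WT) and 558 and 581 CPM (STAT3KO) in those of CD8 T cells. The WT groups overlapped each other, and both STAT3KO groups lay above them. The CD4 difference was 1.31-fold (log2 0.39, SE 0.093, edgeR adjusted p = 0.0343). Across the 8 libraries, Nlrc5 and Tap1 were each the gene nearest to the other among 12427 genes, with a root mean square difference of 0.0425 between their centred log2 CPM profiles. After them came Rab8b (0.0600) and F8a (0.0619) for Nlrc5, and Lyrm1 (0.0448) and Tada1 (0.0577) for Tap1. These distances describe 8 libraries that share 4 groups, and the nearest of many genes is close by selection.

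Leaving out 1 library reduced the number of members called in CD4 T cells. Psmb9 alone was called without any 1 of the 4 CD4 libraries, and Psmb9 and Tap1 without any 1 of the 4 CD8 libraries, so that Nlrc5 and Psmb10 lost their calls in each of these 8 fits.

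The genes of the class I molecule itself did not pass the test in CD4 T cells in the fit without the replicate block. H2-K1, the heavy chain of H-2K, was at 2158 and 2263 CPM in the WT and 2486 and 2600 CPM in the STAT3KO libraries of CD4 T cells, and at 1552 and 1654 CPM (WT) and 1823 and 1695 CPM (STAT3KO) in those of CD8 T cells. STAT3KO lay above WT in both lineages without overlap, and every CD4 library lay above every CD8 library. The CD4 difference was 1.15-fold (log2 0.20, SE 0.12, edgeR adjusted p = 0.316). H2-D1, the heavy chain of H-2D, was at 692 and 614 CPM in the WT and 731 and 653 CPM in the STAT3KO libraries of CD4 T cells, and at 676 and 624 CPM (WT) and 707 and 581 CPM (STAT3KO) in those of CD8 T cells. All groups overlapped, replicate 1 was higher in each, and the CD4 difference was 1.06-fold (log2 0.08, SE 0.13, edgeR adjusted p = 0.745).

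B2m was at 2188 and 2987 CPM in the WT and 2933 and 3882 CPM in the STAT3KO libraries of CD4 T cells, and at 1943 and 2487 CPM (WT) and 2746 and 3414 CPM (STAT3KO) in those of CD8 T cells. In each group the replicate 2 library was the higher, by 0.31 to 0.45 on the log2 scale, and the CD4 genotypes overlapped. The macrophage and monocyte markers were also higher in the replicate 2 library of each group, and their part in the B2m levels was not tested. The difference between genotypes was much the same within each replicate: log2 0.42 and 0.38 in CD4 T cells, and 0.50 and 0.46 in CD8 T cells. B2m was not called in CD4 T cells (log2 0.40, SE 0.23, edgeR adjusted p = 0.309) or in CD8 T cells (log2 0.48, SE 0.23, edgeR adjusted p = 0.303). With the replicate number as a block it was called higher in both (edgeR adjusted p = 0.00811 and 0.00653).

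The genes with profiles nearest to B2m were Xlr4b (0.0988), Ranbp6 (0.0990) and Nptn (0.102), and the nearest other member, Nlrc5, was at rank 256 (0.205). Tapbp, which encodes tapasin, was at 309 and 300 CPM in the WT and 332 and 362 CPM in the STAT3KO libraries of CD4 T cells, and at 262 and 265 CPM (WT) and 253 and 272 CPM (STAT3KO) in those of CD8 T cells. Tapbp was highest in STAT3KO CD4, and its CD4 difference of 1.14-fold (log2 0.19, SE 0.093) did not pass the test (edgeR adjusted p = 0.238). The blocked fit called 6 members in CD4 T cells, the 4 above with B2m and Psmb8, against 30.4% of all tested genes.

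In CD8 T cells no member was called (edgeR), against 2.13% of all tested genes, and DESeq2 and limma also called 0 members. At an unadjusted p under 0.05, 1 of the 10 members (Psmb9) passed, as did 19.8% of all tested genes. The median log2 fold change of the members was 0.07, beside -0.01 over all tested genes, with 6 values above 0 and 4 below. In 5 members, H2-K1, B2m, Tap1, Psmb9 and Nlrc5, both STAT3KO CD8 libraries lay above both WT CD8 libraries, which was so for 24.9% of all tested genes. The fitted differences of Psmb9 (log2 0.24, 95% interval 0.02 to 0.45), Nlrc5 (0.21, -0.01 to 0.42) and Tap1 (0.20, -0.02 to 0.41) were smaller than in CD4 T cells. For Psmb8 (-0.08, -0.32 to 0.16) and Psmb10 (-0.03, -0.30 to 0.24) the intervals held both signs. In the blocked fit B2m alone was called, against 18.6% of all tested genes.

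**Figure D3:**
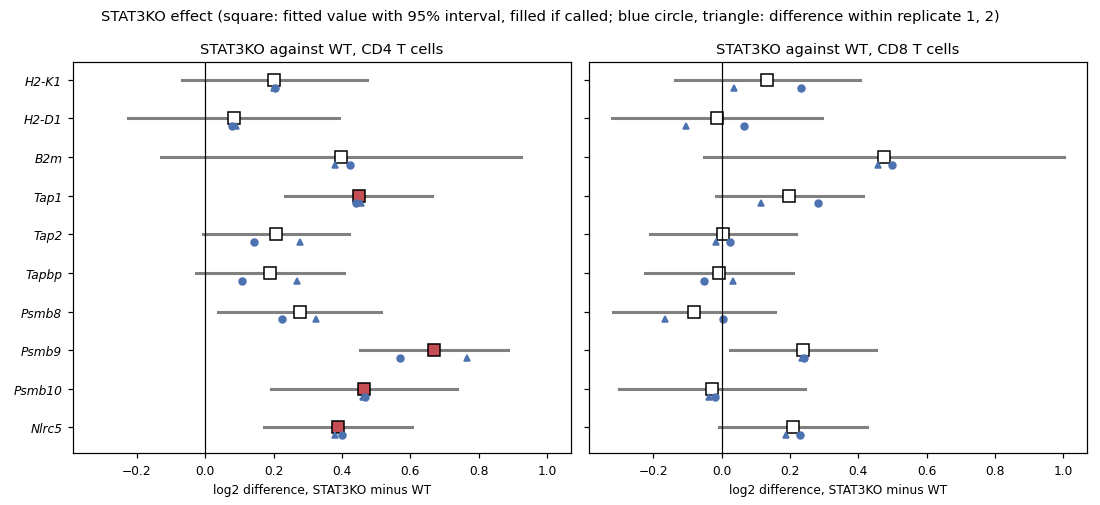
Fitted log2 difference between STAT3KO and WT for each member in CD4 (left) and CD8 (right) T cells, with 95% intervals and with the differences within each replicate as blue points. In CD4 T cells Psmb9 (0.67), Psmb10 (0.47), Tap1 (0.45) and Nlrc5 (0.39) are called. In CD8 T cells no square is filled and the widest interval is that of B2m.

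Whether the STAT3KO effect differed between the lineages was tested as an interaction. The effect was lower in CD8 than in CD4 T cells for 9 of 10 members, B2m being the exception. It was also lower for 6577 of the 12428 tested genes. No member and none of the tested genes were called by edgeR (percent called 0). At an unadjusted p under 0.05 there were 3 members, against 7.93% of all tested genes: Psmb10 (log2 difference of effects -0.49, SE 0.17, adjusted p = 0.457), Psmb9 (-0.43, SE 0.13, adjusted p = 0.394) and Psmb8 (-0.36, SE 0.14, adjusted p = 0.591). These are the inducible subunits of the proteasome. DESeq2 called 190 genes and 0 members, and limma called 0 members. With the replicate block, Psmb10 was called (edgeR adjusted p = 0.0337), against 3.26% of all tested genes.

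The inducible subunits were also set against the constitutive subunits they replace. Psmb5 was at 16.3 and 20.7 CPM in the WT and 12.7 and 17.5 CPM in the STAT3KO libraries of CD4 T cells, and at 16.6 and 21.1 CPM (WT) and 15.3 and 15.4 CPM (STAT3KO) in those of CD8 T cells. Psmb5, Psmb6 and Psmb7 were not called in either lineage (edgeR, 0 of 3 also at an unadjusted p under 0.05, and 0 with DESeq2), with CD4 log2 differences of -0.30 (SE 0.21), 0.04 (SE 0.18) and 0.09 (SE 0.14). The ratio of Psmb9 to Psmb6 in RPKM was 1.88 ± 0.454 in the WT and 2.85 ± 0.298 in the STAT3KO libraries of CD4 T cells, and 1.89 ± 0.220 (WT) and 2.52 ± 0.150 (STAT3KO) in those of CD8 T cells (SD, n = 2 each). STAT3KO lay above WT in both lineages.

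The ratio of Psmb8 to Psmb5 was 13.04 ± 1.70, 19.5 ± 2.77, 14.6 ± 1.82 and 16.7 ± 0.685 in the same order, again with STAT3KO above WT. In CD8 T cells Psmb8 itself was not higher in STAT3KO (log2 -0.08), and Psmb5 was lower (log2 -0.29), neither being called. The ratio of Psmb10 to Psmb7 was 0.515 ± 0.0370, 0.665 ± 0.0271, 0.544 ± 0.00678 and 0.498 ± 0.0214, with STAT3KO above WT in CD4 and below it in CD8 T cells. With 2 libraries against 2 no permutation test of a single ratio can pass, so the ratios are given as descriptions. The mean RPKM in WT CD4 T cells was 21.3 for Psmb5, 75.9 for Psmb6 and 136 for Psmb7. Sharing of reads with other genes was not checked for these constitutive subunits, and its part in the size of the ratios was not tested.

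**Figure D4:**
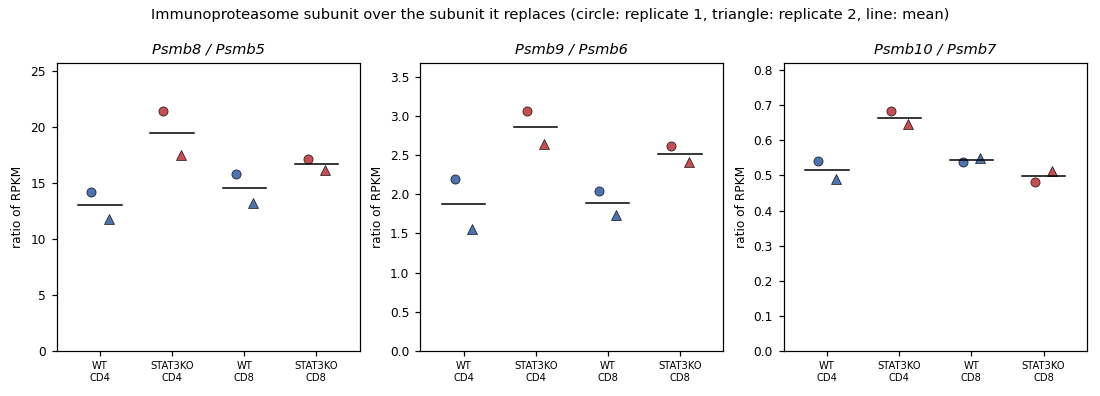
Ratio of RPKM of each inducible proteasome subunit to the constitutive subunit it replaces, per library, with lines for group means. Psmb8 over Psmb5 averages 13.04 for WT CD4 against 19.5 for STAT3KO CD4, and Psmb10 over Psmb7 is raised in STAT3KO CD4 and lowered in STAT3KO CD8.

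The lineages were compared within each genotype, in fits that share their libraries with the comparisons above. In WT T cells 2 of 10 members were called, against 24.4% of all tested genes: H2-K1 was lower in CD8 than in CD4 T cells (0.725-fold, log2 -0.46, SE 0.12, edgeR adjusted p = 0.0249) and Psmb9 was higher (1.26-fold, log2 0.33, SE 0.093, edgeR adjusted p = 0.0365). The Psmb9 call was lost whichever of the 8 libraries was left out (edgeR adjusted p between 0.0627 and 0.175). The H2-K1 call was lost without replicate 2 of WT CD4 or without either WT CD8 library (highest edgeR adjusted p = 0.140). The blocked fit called 4 members (42.5% of all tested genes), with Psmb10 also higher (log2 0.30, edgeR adjusted p = 0.00817) and Tapbp as lower (log2 -0.21, edgeR adjusted p = 0.0468).

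In STAT3KO T cells 3 members were called lower in CD8 than in CD4 T cells, against 6.88% of all tested genes called lower and 12.9% called in all. They were H2-K1 (log2 -0.53, SE 0.12, edgeR adjusted p = 0.0250), Tapbp (-0.40, SE 0.094, edgeR adjusted p = 0.0298) and Tap2 (-0.36, SE 0.092, edgeR adjusted p = 0.0406). All 10 fitted differences were below 0, as were those of 6184 of the 12428 tested genes. In 8 members the libraries did not overlap, as in 28.7% of all tested genes for that direction. The blocked fit (30% of all tested genes) also called Tap1 (log2 -0.25, edgeR adjusted p = 0.0299). No member was called when any 1 of the 4 STAT3KO libraries was left out, H2-K1 alone was called without replicate 1 of WT CD8, and H2-K1 and Tapbp without replicate 2 of WT CD8.

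The ratio of H2-K1 to H2-D1 in RPKM was 3.56 ± 0.419 in the WT and 3.86 ± 0.428 in the STAT3KO libraries of CD4 T cells, and 2.59 ± 0.262 (WT) and 2.87 ± 0.251 (STAT3KO) in those of CD8 T cells. CD4 lay above CD8 in both genotypes. Of the 51-base stretches of H2-K1 and H2-D1 transcripts, 6.41% and 13.3% also occur in other genes, mainly of the H2 family, so the split of reads between these genes is uncertain. Tapbp (22.2%), Tap2 (12%) and Psmb8 (5.39%) share stretches with antisense or neighbouring genes. Tap1 and Psmb9 have 212 exon bases in common on opposite strands in the GENCODE annotation, but their deposited positions do not overlap. Whether the counting used strand is not given in the sources used here.

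Promoter factors and interferon signalling genes, taken as 1 list, moved in both directions in STAT3KO CD4 T cells. Of 18 promoter and interferon signalling genes, 3 were called higher and 4 lower in CD4 T cells, and 1 was called higher and 0 lower in CD8 T cells (edgeR). Of all tested genes, 6.73% were called higher and 5.53% lower in CD4 T cells, and 1.38% and 0.756% in CD8 T cells. The 7 calls of this list in CD4 T cells became 13 with the block, 10 with DESeq2, 5 without the filter or with the compared libraries only, and 1 to 6 with a library left out, and the 1 call in CD8 T cells became 4 with the block, 3 with DESeq2 and 0 with the compared libraries only. Creb1, the CREB factor that binds TGACG sites, was at 145 and 128 CPM in the WT and 260 and 246 CPM in the STAT3KO libraries of CD4 T cells, and at 175 and 156 CPM (WT) and 286 and 283 CPM (STAT3KO) in those of CD8 T cells. It was higher in every STAT3KO library than in any WT library. The log2 difference was 0.89 (SE 0.11, edgeR adjusted p = 0.00252) for CD4 and 0.78 (SE 0.11, edgeR adjusted p = 0.0181) for the CD8 lineage.

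Irf9, a factor of the type I interferon response, rose by 0.60 (SE 0.13, edgeR adjusted p = 0.0221) in CD4 T cells, and Nfyb, a subunit of NF-Y, by 0.44 (SE 0.092, edgeR adjusted p = 0.0217). Neither was called in CD8 T cells by edgeR without the block (adjusted p = 0.0876 and 0.0574). The blocked edgeR fit called both there (adjusted p = 0.00363 and 0.00494), and Nfyb also passed under another alternative.

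Ifnar2, a chain of the type I interferon receptor, fell by 0.89 (SE 0.16, adjusted p = 0.0127), and Socs1, an inhibitor of JAK signalling, by 0.87 (SE 0.21, adjusted p = 0.0357) in CD4 T cells. Rfxank, a subunit of the RFX complex, fell by 0.46 (SE 0.12, adjusted p = 0.0435), and Jak2, a kinase of the interferon-γ receptor, by 0.33 (SE 0.087, adjusted p = 0.0453). Irf1, the interferon-induced activator of this pathway, was at 407 and 353 CPM in the WT and 449 and 692 CPM in the STAT3KO libraries of CD4 T cells, and at 347 and 407 CPM (WT) and 343 and 541 CPM (STAT3KO) in those of CD8 T cells. Irf1 was far higher in replicate 2 of both STAT3KO groups and was not called in CD4 T cells (log2 0.59, SE 0.26, edgeR adjusted p = 0.188) except in the blocked fit (adjusted p = 0.0371).

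Among these 7 called genes in CD4 T cells, the call of Creb1 was kept whichever library was left out, whereas those of Jak2 and Rfxank were lost in 8 of 8 such fits. The call of Creb1 in CD8 T cells was lost in 5 of 8 fits. The calls of Irf9, Nfyb, Ifnar2 and Socs1 in CD4 T cells were lost in 3 to 5 fits, among them those without replicate 2 of WT CD4 or of STAT3KO CD4 (highest adjusted p = 0.185).

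The calls among the other genes of the pathway are read against the 12.3% (CD4) and 2.13% (CD8) of all tested genes that edgeR called, and the 27.6% and 19.8% with an unadjusted p under 0.05. Of 6 peptide loading and trimming partners 1 was called in CD4 T cells, Tapbpl, a tapasin relative (log2 0.56, SE 0.13, adjusted p = 0.0346), and 0 in CD8 T cells. Of 5 proteasome activator and assembly genes 0 were called in either lineage by edgeR, DESeq2 or limma, with 1 and 0 at an unadjusted p under 0.05 in CD4 and CD8 T cells, while the blocked fit called 2 in CD4 T cells. Of 11 other 20S core subunits 1 was called lower in CD4 T cells (Psma6, log2 -0.48, SE 0.11, adjusted p = 0.0305) and 0 in CD8 T cells. Of 17 subunits of the 19S regulatory particle 0 were called in either lineage by edgeR, DESeq2 or limma, with 0 and 1 at an unadjusted p under 0.05, while 1 (CD4) and 2 (CD8) were called in the blocked fit. The calls of Tapbpl and Psma6 were lost without replicate 2 of WT CD4, without either STAT3KO CD4 library, and in 1 fit without a CD8 library (highest adjusted p = 0.178). The median log2 differences in CD4 T cells were 0.14 for the loading partners, -0.02 for the other core subunits and -0.06 for the regulatory particle, beside 0.33 for the 10 members.

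Of 15 nonclassical and class I-like genes 12 were tested, and 2 were called higher in CD4 T cells by edgeR, where 6.73% of all tested genes were: H2-T22, at 4.49 and 4.73 CPM in WT and 8.40 and 8.23 in STAT3KO (log2 0.85, SE 0.16, adjusted p = 0.0143), and H2-T24, at 22.5 and 12.8 CPM in WT and 36.6 and 41.2 in STAT3KO (log2 1.14, SE 0.30, adjusted p = 0.0452). The count in CD4 T cells was 7 with the block, 4 with DESeq2, 1 without the filter or with limma on log2(RPKM + 0.1), and 0 with the compared libraries only. In CD8 T cells edgeR and limma called 0 of the list (2 at an unadjusted p under 0.05), DESeq2 called 1 and the blocked fit 2. H2-T24 passed there with DESeq2 (log2 1.19, adjusted p = 0.00330) and in the blocked fit (log2 1.22, adjusted p = 0.00420). Both calls were lost without replicate 2 of WT CD4 or either STAT3KO CD4 library (highest adjusted p = 0.186), among 4 and 5 such fits for H2-T22 and H2-T24. H2-M3, which carries the same promoter arrangement as B2m, H2-K1 and H2-D1, was not called (log2 0.18, SE 0.14, adjusted p = 0.459 in CD4 T cells). Sharing of reads with other H2 genes was not checked for the genes of this list, H2-T22 and H2-T24 among them.

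In the class II pathway, whose transactivator Ciita is the counterpart of Nlrc5, 9 of 10 genes were tested and edgeR called 1 in CD4 T cells, where it called 12.3% of all tested genes. The blocked fit and that with the compared libraries only called 2. H2-Ob, a chain of the peptide exchange modulator DO, was at 17.5 and 25.0 CPM in the WT and 4.90 and 5.12 CPM in the STAT3KO libraries of CD4 T cells (log2 -2.09, SE 0.29, edgeR adjusted p = 0.00464). Its 2 genotypes did not overlap in CD4 T cells, and no class II gene was called in CD8 T cells (edgeR, 0 at an unadjusted p under 0.05). Ciita stayed between 0 and 0.505 CPM in all 8 libraries.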

How the data were processed

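RNA was sequenced from 8 libraries in 4 groups taken from the genotype and cell type labels. The authors ran STAR against mm10 and HTSeq on RefSeq genes, and deposited raw read counts and RPKM values. The growth and treatment fields of the labels describe other cells and were not used. The library kit named there differs from that of the study's methods, and the use of strand is not given in the sources used here.

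Genes were kept by filterByExpr with a minimum count of 10 (12428 of 25078). The counts of all libraries were fitted together in edgeR 4.0.16 (R 4.3.3) with TMM factors and a mean per group, tested by the two-sided quasi-likelihood F test, and adjusted over all tested genes (Benjamini-Hochberg, threshold 0.05). DESeq2 1.42.0, limma 3.58.1 on log2(RPKM + 1) and log2(RPKM + 0.1), other scalings, filters and left-out libraries were alternatives. The edgeR step was tested on simulated data with 200 changed genes. Intervals are at 95%.

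Same-numbered libraries deviated together from their group means (correlations of 0.424 to 0.672 over the 6 pairs of groups), so the replicate number was also used as a block. No 2 libraries of a group agreed within sampling noise (chi-square per degree of freedom of at least 23.3).

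The members and gene lists were chosen with earlier results of these data known. Named genes were the members, Stat3, Cd4, the constitutive subunits, Irf1, Ciita, at most the 4 called genes per list with the most change, and the 3 nearest profiles of Nlrc5, Tap1 and B2m. Irf9, Nfyb, Rfxank, Jak2, H2-M3, Ms4a1, Cd79a, Cd79b, Cd22 and Pax5 were named after their values were seen. A gene of the promoter and interferon list and a B cell marker are not reported here.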

Additional observations from a re-analysis of the deposited data

Results flagged for a closer look

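The STAT3KO effect on Psmb10 was lower in CD8 than in CD4 T cells (log2 difference of effects -0.49), with log2 differences of 0.47 and 0.46 within the 2 replicates of CD4 T cells and of -0.02 and -0.04 within those of CD8 T cells. The difference between the lineages passed the threshold in the blocked fit (edgeR adjusted p = 0.0337) and not without the block (edgeR adjusted p = 0.457).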

How the results depend on the processing

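Members called in CD4 T cells (STAT3KO against WT) numbered 4, and 4 with DESeq2, RLE factors, the older edgeR quasi-likelihood fit and limma on log2(RPKM + 1), 3 on log2(RPKM + 0.1), 2 with total counts, 2 without the filter, 1 with the compared libraries only, 6 with the block, and 1 to 2 with a library left out. In CD8 T cells the count was 0 everywhere except 1 with the block, and so it was for the interaction. For CD8 against CD4, the WT count of 2 became 1 without the filter, 4 with the block, 0 with the compared libraries only, 1 and 0 with limma (RPKM + 1 and + 0.1), and 0 to 1 with a library left out, while the STAT3KO count of 3 ranged from 0 to 3 with a library left out and from 2 to 4 otherwise.

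The number of all genes called in CD4 T cells was 1524, against 3777 with the block, 1026 with the compared libraries only and 415 to 1357 with a library left out. In CD8 T cells it was 265, against 885 with DESeq2, 175 without the filter, 2307 with the block, 39 with the compared libraries only and 8 to 237 with a library left out. The interaction called 0 genes, against 190 with DESeq2, 405 with the block, 13 with limma (RPKM + 1) and 1 with total counts. The block turned no direction, and beyond the calls given above it changed none of those of the members. Under any scaling the median over all genes lay within 0.05 (log2) of 0.

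Uncalled differences near 0 changed sign. Tap2 in CD8 T cells was -0.037 with total counts, -0.0052 without the filter and -0.0053 and -0.0054 with limma, and Ifnar2 there was -0.0021 with total counts. H2-D1 and Tap1 between WT lineages were 0.0071 and 0.011 with the compared libraries only. With a library left out, H2-D1 ranged from -0.026 to 0.16 (STAT3KO, CD4), -0.16 to 0.11 (STAT3KO, CD8), -0.24 to 0.049 (interaction), -0.11 to 0.064 (lineages, WT) and -0.26 to 0.029 (lineages, STAT3KO). B2m ranged from -0.15 to 0.30 (interaction) and -0.33 to 0.053 (lineages, STAT3KO), and Tap1 and Nlrc5 from -0.064 to 0.029 and -0.078 to 0.018 (lineages, WT). In CD8 T cells (STAT3KO against WT) Tap2 ranged from -0.013 to 0.0059, Tapbp from -0.072 to 0.043, Psmb10 from -0.098 to 0.027, Irf1 from -0.15 to 0.52, Ifnar2 from -0.14 to 0.23 and H2-Ob from -0.27 to 0.46, and in CD4 T cells Psmb6 from -0.20 to 0.28 and Psmb7 from -0.10 to 0.27. The causes were not tested.

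The members' counts lay between 1650 and 84947. The SD between the 2 libraries of a group ran from 0.645 CPM (Nlrc5, WT CD4, mean 498) to 671 CPM (B2m, STAT3KO CD4, mean 3408). Counting error was not compared with this spread for each member.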
